A study of Mus musculus with 30 samples.

Results

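The cornified envelope is the protein shell that replaces the plasma membrane of the outermost keratinocytes. It is built when transglutaminases, Tgm1 first among them, cross-link loricrin (Lor), involucrin (Ivl), the small proline-rich proteins (Sprr) and the late cornified envelope proteins (Lce), and most of these genes sit side by side in the epidermal differentiation complex. Sprr genes are known for being induced in injured or stressed epithelium, and Lce genes for late expression in the granular layer. The genes described here are those whose symbol starts with Sprr or Lce and a number, with Lor, Ivl and Tgm1. By this rule, which uses names only, 37 of the 20321 genes in the tables were taken, and Flg and Flg2, which the rule also names, were not analysed here. They are 2 Sprr1 genes, 9 Sprr2 genes, Sprr3, Sprr4, 14 Lce1 genes, 6 Lce3 genes, Lce6a, Lor, Ivl and Tgm1.

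RNA came from digit 3 of the hindlimb of adult male C57Bl/6 mice, in which at most 33% of the distal phalanx (P3) had been amputated and the skin wound left to heal without sutures. The 30 mice were collected at 9 times: at 0 h, at 3, 6, 12 and 24 h, and at 3, 7, 14 and 21 d, with 6 mice at 7 d and 3 at every other time. Every mouse was amputated, so the digits taken at 0 h are the reference and no unamputated group is compared here. Each library is a whole digit tip, and fewer keratinocytes cannot be told apart from less RNA per keratinocyte. Totals per mouse ran from 3167625 to 16277816 expected counts, with a median of 6103688. The sample titles carry dates that fall into an earlier set of 16 mice and a later set of 14. All 3 h and 12 h mice are in the earlier set and all 21 d mice in the later, so date and time cannot be told apart there, while the other times hold both. At 7 d, mice 1 and 2 are of the earlier set and mice 3 to 6 of the later, and the 3 left-foot digits (mice 3, 4 and 6) are all among the latter. The 7 d mouse 3 stands apart for some of the genes below. Its library also had the fewest genes with a count, 12191 against 12945 to 15538 in the other mice. Its total was 6046501 expected counts. Keratinocyte markers were high in every mouse: Krt14 ranged from 5346 to 9559 TPM (a level scaled to the library and to gene length) and Krt10 from 7330 to 34360 TPM.

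Of the 37 genes, 36 lie on chromosome 3 between Lor (chr3:92080271-92083142, minus strand, mm10) and Lce1m (chr3:93017810-93019060), and Tgm1 lies on chromosome 14 (chr14:55700009-55713926). To show what the neighbouring genes share beyond their names, the RefSeq promoters (GRCm38.p6, 250 bases before the start and 50 from it) were searched on both strands for TGANTCA, the core recognised by AP-1, a dimer of Fos and Jun proteins. It was found for 11 of the 36 genes that have an entry, against 7.81% of all 32851 promoters of that length. In 7 of the 9 Sprr2 promoters the match began 193 to 198 bases before the start, whereas none of the 20 Lce genes with an entry held one. The windows below run from 20 bases before the first match to 33 after it, in the direction of the gene, with matches in capitals. They are shown because the Sprr2 windows stand at nearly the same place in each gene.
Sprr2b, chr3:92316490-92316549, plus strand: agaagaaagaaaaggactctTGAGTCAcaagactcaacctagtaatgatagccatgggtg
Sprr2d, chr3:92338927-92338986, plus strand: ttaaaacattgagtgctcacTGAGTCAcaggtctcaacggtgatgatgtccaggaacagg
Sprr2e, chr3:92351930-92351989, plus strand: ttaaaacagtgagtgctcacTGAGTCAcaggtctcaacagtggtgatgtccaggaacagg
Sprr2h, chr3:92385467-92385526, plus strand: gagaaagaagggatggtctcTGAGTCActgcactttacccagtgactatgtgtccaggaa
Sprr2k, chr3:92432366-92432425, plus strand: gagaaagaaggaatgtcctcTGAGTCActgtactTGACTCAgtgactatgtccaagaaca
Sprr1b, chr3:92438851-92438910, minus strand: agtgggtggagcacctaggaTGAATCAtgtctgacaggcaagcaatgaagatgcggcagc
Lor, chr3:92083151-92083210, minus strand: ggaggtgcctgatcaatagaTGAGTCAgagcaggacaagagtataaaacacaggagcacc
The Sprr2a1 and Sprr2a2 promoters were the same in all 300 bases and held no match. A match is a string of letters, and binding was not measured.

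In TPM, the Lce1 genes made up 76.7% of the RNA of the 37 genes, with a summed level of 2360 to 10120 TPM per mouse. Lce1a1 was the most abundant single gene, with a mean of 894 TPM over the 30 mice, followed by Lce1h at 556 and Lce1b at 549 TPM. Of the small proline-rich genes, Sprr1b (mean 505 TPM) stood far above Sprr2b (185), Sprr1a (102) and Sprr2h (78.9 TPM). Lor, the main protein of the mature envelope, had a mean of 359 TPM, the cross-linking enzyme Tgm1 134 TPM and the scaffold protein Ivl 68.9 TPM. The Lce3 genes were led by Lce3c (117), Lce3e (95.0) and Lce3f (46.3 TPM). At the other end, Sprr3, a gene of internal stratified epithelia, was at 0 counts in 24 of 30 mice and reached at most 5 counts, and Sprr4 was at 0 in 24 mice as well. Sprr2f was at 0 in 20 mice. These 3 genes fell below the filter on low counts, and the other 34 were tested.

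**Figure D1:**
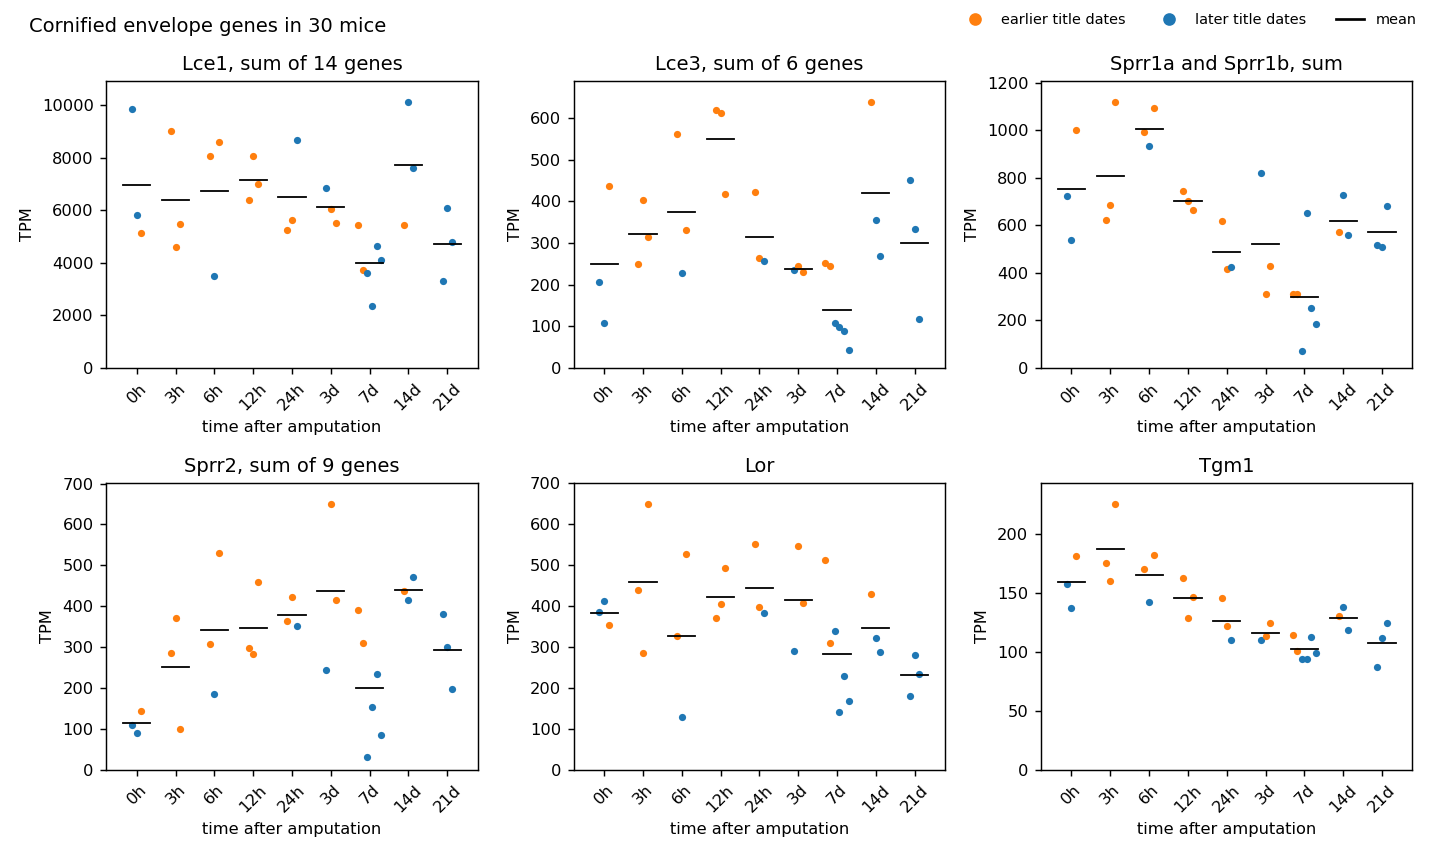
Level in TPM (y axis, from 0) of 4 gene families, Lor and Tgm1 in each of the 30 mice, by time after amputation (x axis); points are mice, coloured by the set of title dates, and lines are means. The Lce1 sum had its lowest mean at 7 d (3992 TPM), the Sprr2 sum its lowest at 0 h (114 TPM), and Lce3 its highest at 12 h (549 TPM).

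Over the whole course, 8 of the 34 genes tested changed (edgeR quasi-likelihood F-test, adjusted p under 0.05), beside 9.01% of all 13793 genes tested. These were Tgm1, Sprr2a1, Sprr1b, Lce3c and the Lce1 genes Lce1b, Lce1d, Lce1e and Lce1l. With DESeq2 the count was 14, beside 18.1% of all genes with an adjusted p. Tgm1 had the smallest adjusted p (0.00059 by edgeR), then Sprr2a1 (0.00086), Lce1l (0.0041), Lce3c (0.0097) and Sprr1b (0.0217), while Lce1e, Lce1b and Lce1d were at 0.0457, 0.0473 and 0.0491. Calls for Tgm1, Sprr2a1, Lce1l and Lce3c held with any single mouse left out, but Lce1l and Lce3c were not called without the left-foot mice (adjusted p = 0.098 and 0.051, edgeR). Lce1b and Lce1d were called in 9 of the 30 fits that left a mouse out, Lce1e in 11 and Sprr1b in 29. Neither Lor (adjusted p = 0.33, edgeR) nor Ivl (0.56) passed the test.

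Against 0 h, no gene of the 37 passed the edgeR test at 3 h, 6 h, 12 h, 24 h or 21 d, where 0.254%, 0.189%, 0.167%, 0.493% and 1.94% of all genes tested did. At an unadjusted p under 0.05 there were 2, 5, 5, 5 and 6 genes at these times, beside 10.9%, 7.24%, 7.67%, 9.41% and 9.22% of all genes. DESeq2 called 0, 0, 0, 2 and 1, beside 1.22%, 0.832%, 0.49%, 1.1% and 2.71% of all genes. At 3 d, 1 gene of 34 was called and it was higher (0.551% of all genes, 0.486% counting higher only). At 7 d, 5 were called, all lower (2.34% of all genes, 0.66% counting lower only). At 14 d, 1 was called and higher (1.61%, and 1.48% counting higher only). DESeq2 called 2, 8 and 4 at these 3 times, beside 1.24%, 4.32% and 2.56% of all genes. The median log2 fold change of the 34 genes was 0.18 at 3 h, 0.23 at 24 h, -0.17 at 3 d, -0.57 at 7 d, 0.27 at 14 d and -0.17 at 21 d, while that of all genes tested lay between -0.02 and 0.01 at every time. The medians from 6 h on are the same with Sprr2e, which was at 0 in the 0 h mice, set at its lower bound.

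**Figure D2:**
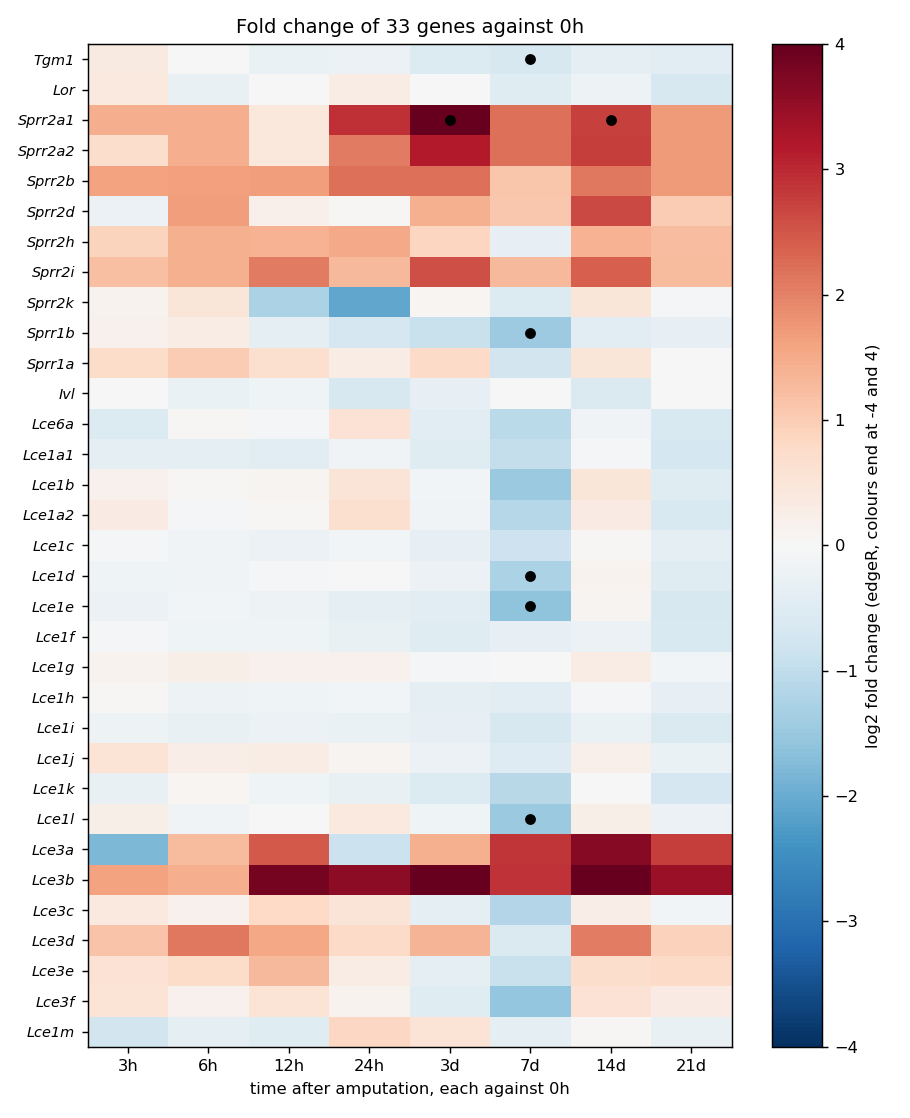
Log2 fold change against 0 h (colour; red higher, blue lower) of 33 genes (rows, by position on the chromosome) at 8 times (columns), with black dots where the adjusted p was under 0.05 (edgeR); Sprr2e is left out because it was at 0 counts in every 0 h mouse. Dots stand at 3 d and 14 d for Sprr2a1 and at 7 d for Tgm1, Sprr1b, Lce1d, Lce1e and Lce1l.

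The summed level of the Sprr2 genes had its lowest mean at 0 h. It was 114 ± 27 TPM (SD, n = 3) at 0 h, 436 ± 204 at 3 d, 201 ± 137 (n = 6) at 7 d and 441 ± 28.3 TPM at 14 d. At 7 d the 2 earlier-date mice had a mean of 350 TPM and the 4 later-date mice 126 TPM. Single genes took other courses: the mean of Sprr2k was 6.82 TPM at 0 h and 1.52 TPM at 24 h, and that of Sprr2h 40.7 TPM at 0 h and 34.8 TPM at 7 d. Against 0 h, all 8 Sprr2 genes tested, with Sprr2a1 and Sprr2a2 counted apart, had a fold change above 0 at 6 h, 3 d and 14 d. The count was 7 of 8 at 12 h, 24 h and 21 d, and 6 of 8 at 7 d. It was 7 of 8 at 3 h too, where Sprr2e had 0 counts at both times. Sprr2a1 alone passed the edgeR test at any time. Sprr2a1 and Sprr2a2 cannot be separated with these reads: 95.2% of the 65-base stretches of Sprr2a1 also occur in another gene, mostly Sprr2a2. In 27 mice the counts of the pair were equal (within 0.005), and in 3 mice, 1 each at 3 h, 24 h and 3 d, every count had gone to Sprr2a1. The pair is therefore given as a sum from here on.

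The summed Sprr2a1 and Sprr2a2 level, in CPM (counts scaled to library size with edgeR's TMM factors), was 1.97, 2.60 and 1.48 at 0 h. It was 26.3, 33.5 and 28.8 CPM at 3 d, so that every 3 d mouse lay above every 0 h mouse, and the 3 d mice differed little among themselves. The log2 fold change of the sum was 3.84 ± 0.69 (SE, adjusted p = 0.0034, edgeR) at 3 d and 2.76 ± 0.67 (adjusted p = 0.027) at 14 d, where the mice had 27.2, 8.53 and 6.83 CPM. At 7 d the 6 mice ran from 2.92 to 22.0 CPM with a median of 7.17, all above 0 h (15.2 and 22.0 CPM in the earlier-date mice and 2.92 to 7.75 CPM in the later-date ones), with a log2 fold change of 2.22 ± 0.62 that missed the threshold (adjusted p = 0.051). For Sprr2a1 as listed, the call at 3 d held with each of the 30 mice left out in turn, and the call at 14 d held in 9 of the 30.

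Sprr2e, whose window is printed above, was at 0 counts in all 0 h and 3 h mice. Its counts were 23, 17 and 10 at 3 d and 6, 40 and 27 at 14 d. Set against a floor of 3 counts in each 0 h library (0.347 CPM on average), its mean level was at least 9.31-fold higher at 3 d and at least 7.23-fold higher at 14 d. The edgeR test did not call it over the course (adjusted p = 0.12), and DESeq2 did (it is among the 14). The 2 most abundant genes of the group, Sprr2b and Sprr2h, did not pass the test at any time in the fit to all mice. Sprr2b had 17.7, 17.9 and 19.7 CPM at 0 h and 70.9, 78.9 and 102 CPM at 24 h, where the groups did not overlap (log2 fold change 2.19 ± 0.65 SE, adjusted p = 0.18, edgeR). Sprr2h had 14.7, 8.42 and 18.4 CPM at 0 h and 37.2, 29.9 and 41.1 CPM at 12 h, again with no overlap (1.39 ± 0.56, adjusted p = 0.57). For both genes the lack of overlap is a description only, at a time taken from several. The share of all genes without overlap is not given here. When only 0 h and the later time were fitted, Sprr2b and Sprr2h were called at 12 h, 14 d and 21 d. The share of all genes called in these smaller fits is not given here. All 12 h mice are of the earlier dates and all 21 d mice of the later, so date and time cannot be told apart there. Sprr2d had 1.60, 0.96 and 1.44 CPM at 0 h and 4.42, 12.1 and 8.66 CPM at 14 d (adjusted p = 0.073 in the fit to all mice, edgeR), and was called there by DESeq2 and in the smaller fit.

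**Figure D3:**
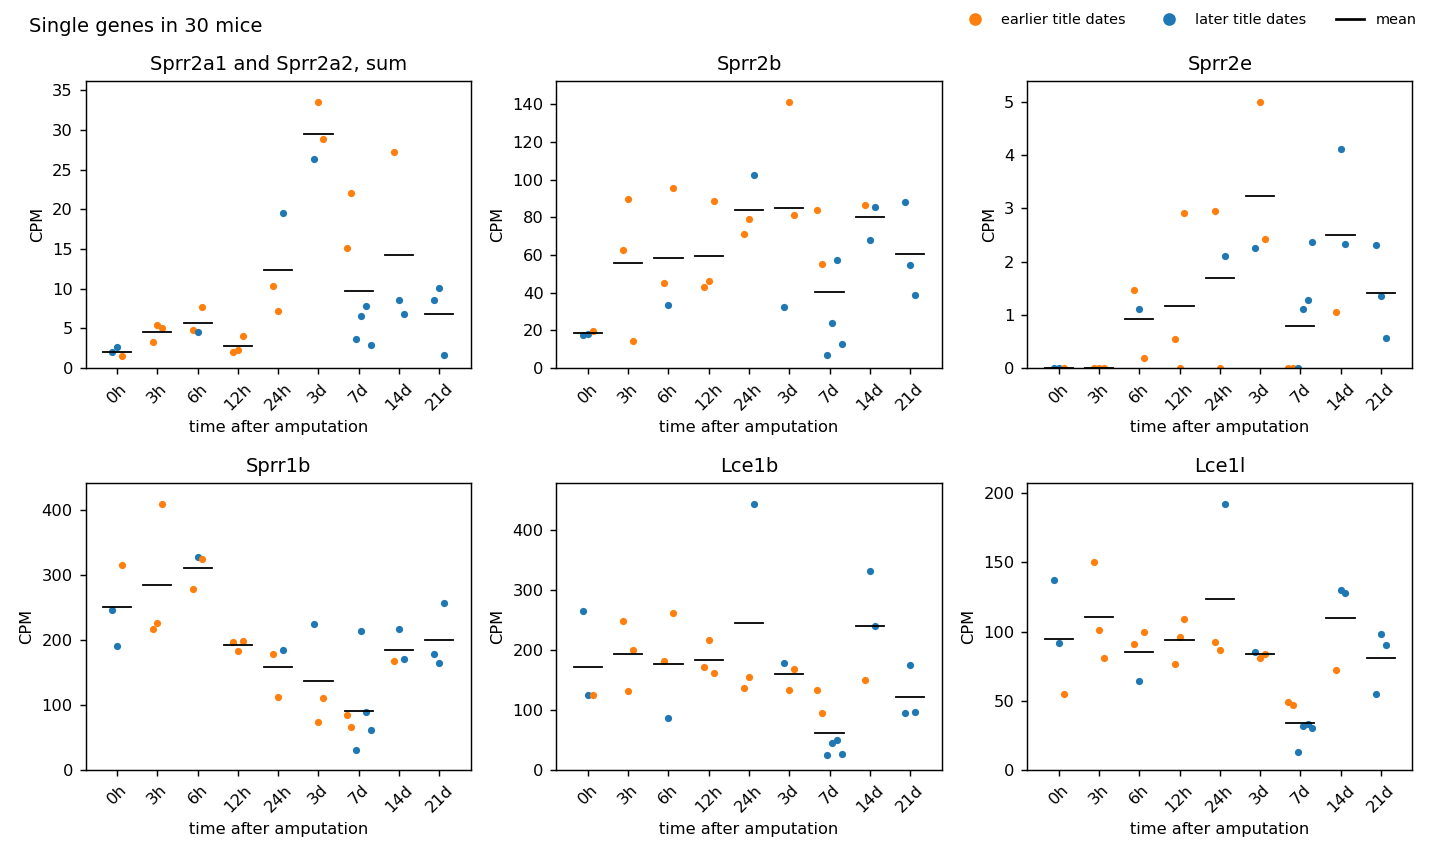
Level in CPM (y axis, from 0) of the Sprr2a1 and Sprr2a2 sum, Sprr2b, Sprr2e, Sprr1b, Lce1b and Lce1l in each of the 30 mice, by time after amputation (x axis); points are mice, coloured by the set of title dates, and lines are means. The Sprr2a sum was at 26.3 to 33.5 CPM in the 3 d mice, and Lce1b was at 24.7 to 48.9 CPM in the 4 later-date mice of 7 d.

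Sprr1b and Sprr1a, cross-bridging proteins that are usually made together in stratified epithelia, took another course. Sprr1b was at 247, 191 and 316 CPM at 0 h and at 278, 328 and 325 CPM at 6 h, the time with its highest mean. At 7 d it ran from 30.8 to 214 CPM with a median of 75.2, and 5 of the 6 mice lay below every 0 h mouse. The log2 fold change was -1.46 ± 0.35 (SE, adjusted p = 0.020, edgeR). It was lower within the earlier dates (75.2 against 316 CPM, 2 mice against 1) and within the later ones (98.8 against 219 CPM, 4 against 2). Sprr1a had 32.0, 15.8 and 39.5 CPM at 0 h and 0.185 to 35.1 CPM at 7 d, with a median of 15.3, and was not called (-0.74 ± 0.51, adjusted p = 0.59). Its lowest 7 d value is the single count of mouse 3. Sprr1b was not called without the 0 h mouse 1 (-1.46, adjusted p = 0.098) or the 0 h mouse 3 (-1.23, adjusted p = 0.17, edgeR).

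Tgm1, the membrane-bound transglutaminase that cross-links the envelope, was highest at 3 h (243, 224 and 341 CPM) and lowest at 7 d. At 0 h it had 213, 185 and 226 CPM, and at 7 d 109 to 158 CPM with a median of 134, so that no 7 d mouse reached the 0 h mice. The log2 fold change was -0.63 ± 0.15 (SE, adjusted p = 0.015, edgeR), and it was below 0 within the earlier dates (-0.90 on the log2(CPM + 1) scale) and the later ones (-0.50). The call was lost without the 0 h mouse 1 (adjusted p = 0.12), without the 0 h mouse 3 (0.16) and without the left-foot mice (0.056, edgeR), with log2 fold changes of -0.59, -0.53 and -0.61. All mice of 3 d, 14 d and 21 d also lay below the 0 h mice, with log2 fold changes of -0.54, -0.35 and -0.47 that did not pass the test (adjusted p = 0.26, 0.57 and 0.26, edgeR). Lor had 327, 349 and 277 CPM at 0 h and 119 to 374 CPM at 7 d with a median of 205. The groups overlapped and no time was called for it. Ivl had 77.7, 82.4 and 47.5 CPM at 0 h, and its means at the other times lay between 44.6 CPM (24 h) and 69.3 CPM (3 h), also without a call.

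The Lce1 genes were the most abundant of the 37, and 3 of them fell at 7 d. Their sum was 6951 ± 2548 TPM (SD, n = 3) at 0 h, 3992 ± 1044 (n = 6) at 7 d and 7730 ± 2333 TPM at 14 d. Of the 14 genes, 13 had a fold change below 0 at 7 d, with a median of -0.90 on the log2 scale, and 3 passed the edgeR test. Lce1l went from 137, 91.4 and 54.6 CPM at 0 h to 13.1 to 49.0 CPM (median 32.3) at 7 d, a log2 fold change of -1.48 ± 0.31 (SE, adjusted p = 0.0061). Lce1e fell by 1.61 ± 0.37 on the log2 scale (adjusted p = 0.013), from a mean of 162 to 53.1 CPM, and Lce1d by 1.26 ± 0.31 (adjusted p = 0.023), from 190 to 79.7 CPM. Within the earlier dates Lce1d, Lce1e and Lce1l differed between 7 d and 0 h by -0.21, -0.39 and -0.18 on the log2(CPM + 1) scale, and within the later dates by -1.70, -2.27 and -2.10. The 7 d and 0 h mice did not overlap for Lce1l and Lce1e and overlapped for Lce1d. Without the 0 h mouse 1, which had the highest Lce1 level of the 0 h mice, none of the 37 genes was called at 7 d, and Lce1l was at -1.09 (adjusted p = 0.17, edgeR). The same held when 0 h and 7 d alone were fitted. Without the left-foot mice, Lce1d, Lce1e and Lce1l were not called (-0.98, -1.14 and -1.11), and Lce1d was not called without the 0 h mouse 2 or the 7 d mouse 4 either. Markers of other cell types also moved at 7 d: the sum of 6 fibroblast markers was 12580 to 20260 CPM against 5622 to 10970 CPM at 0 h. Of these markers, 2 fibroblast, 1 macrophage, 1 endothelial and 1 osteoblast marker were called higher. Another osteoblast marker was called lower, beside 2.34% of all genes called in either direction. The part of these cell types in the Lce1, Sprr1b and Tgm1 levels was not tested.

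From 7 d to 14 d, 4 genes of the 34 rose, all of the Lce1 group (0.435% of all genes tested were called, and 0.355% as higher). Lce1b rose from 24.7 to 133 CPM (median 46.3) at 7 d to 149, 332 and 239 CPM at 14 d, with a log2 fold change of 1.96 ± 0.43 (SE, adjusted p = 0.029, edgeR). For Lce1d, Lce1e and Lce1l the values were 1.42 ± 0.31, 1.72 ± 0.37 and 1.70 ± 0.31 (adjusted p = 0.029, 0.024 and 0.0054, edgeR), and no 14 d mouse overlapped with 7 d for any of the 4. The lack of overlap is a description only, since the test that picked the 4 genes used the same values. None of the 4 calls was made without the 14 d mouse 2, without the 14 d mouse 3, without the left-foot mice, or when these 2 times alone were fitted. In these 4 fits the log2 fold change was 1.64, 1.93, 1.35 and 1.94 for Lce1b and 1.55, 1.55, 1.33 and 1.68 for Lce1l. DESeq2 called 8 of the 37 genes for this step, beside 1.9% of all genes. Without the 7 d mouse 5, or without mouse 6, Lce1l alone was called, and without mouse 3 or mouse 4 Lce1b and Lce1d were lost. No other step between neighbouring times had a called gene of the 37: 0.16%, 0%, 0%, 0.0653%, 0.0145% and 0% of all genes were called from 3 h to 6 h, 6 h to 12 h, 12 h to 24 h, 24 h to 3 d, 3 d to 7 d and 14 d to 21 d. At an unadjusted p under 0.05 these 6 steps had 2, 0, 2, 3, 12 and 2 of the 34 genes, beside 10.9%, 6.63%, 7.74%, 6.55%, 9.14% and 1.96% of all genes. DESeq2 called 1 gene, Lce1l, from 3 d to 7 d and none at the other 5, beside 1%, 0.0218%, 0.213%, 0.173%, 0.189% and 0.0363% of all genes in the same order.

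The 7 d values of these Lce1 genes differed between the sets of title dates. Lce1b was at 133 and 94.8 CPM in the 2 earlier-date mice and at 24.7, 43.6, 48.9 and 25.8 CPM in the 4 later-date mice. Within the earlier dates its 7 d level differed from 0 h by -0.14 on the log2(CPM + 1) scale, and within the later dates by -2.37. Over the 14 Lce1 genes the difference ran from -0.68 to 0.75 (median -0.39) within the earlier dates, where 0 h is a single mouse, and from -2.37 to 0.05 (median -1.10) within the later. Not every Lce1 gene was low in the later-date mice: Lce1g had 194 CPM there against 178 CPM at 0 h of the same dates. Lce1f was lower, at 160 against 193 CPM. As a share of all Lce1 counts, Lce1b made up 1.78% to 5.58% in the 4 later-date mice of 7 d, 8.64% and 9.72% in the 2 earlier-date mice, and 5.86% to 11.7% in the 24 mice of other times. Lce1g made up 11.3% to 17.0% in the former 4 and 6.49% to 9.97% in those 24.

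**Figure D4:**
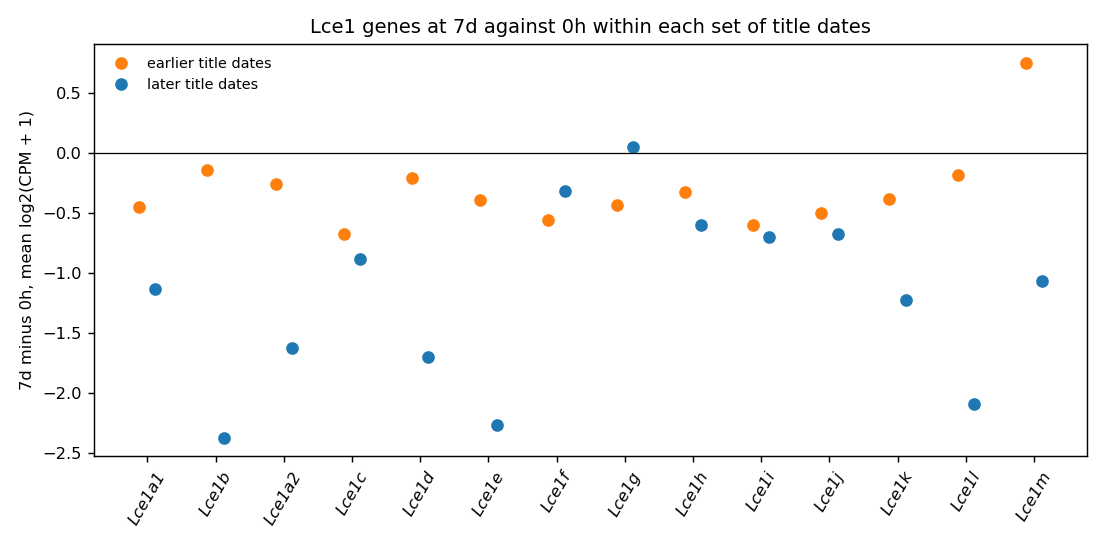
Difference between 7 d and 0 h in mean log2(CPM + 1) (y axis) for each of the 14 Lce1 genes (x axis, by position), within the earlier title dates (2 mice against 1) and within the later ones (4 against 2). The later-date differences reach -2.37 for Lce1b, and the earlier-date ones lie between -0.68 and 0.75.

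The difference between the sets of dates was tested in the 21 mice of the 6 times that have both (edgeR, interaction of time and dates, chosen after the values were seen). For 7 d against 0 h it called no gene at all (0% of 13587), and 7 of the 37 genes had an unadjusted p under 0.05 (9.88% of all genes did), among them Lce1b (-2.32 ± 0.55, adjusted p = 0.11). For 14 d against 7 d it called 1.48% of all genes, including Lce1b (2.60 ± 0.55, adjusted p = 0.027) and Lce1e (2.18 ± 0.50, adjusted p = 0.038). Without the 7 d mouse 3 it called Lce1l for 7 d against 0 h (-1.69 ± 0.28, adjusted p = 0.018), where 0.42% of all genes were called, and Lce1a2, Lce1b, Lce1e and Lce1l for 14 d against 7 d, where 3.25% were. Of 9 spinous and granular keratinocyte markers, 6 had the lower difference between 7 d and 0 h within the earlier dates and 3 within the later, with medians of -0.70 and -0.45 on the log2(CPM + 1) scale. Their summed level was 87150 to 96690 CPM at 0 h and 59230 to 92340 CPM at 7 d within the later dates, and 82850 and 39680 to 48750 CPM within the earlier. The 4 macrophage markers summed to 43.9 to 88.8 CPM in the 4 later-date mice of 7 d and to 284 and 286 CPM in the 2 earlier-date mice. The part of cell make-up, foot or date in these values was not tested.

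The Lce3 genes, which are known to be induced when skin is injured, had their highest summed level at 12 h. The sum was 250 ± 169 TPM (SD, n = 3) at 0 h, 549 ± 115 at 12 h, 139 TPM at 7 d and 421 ± 192.5 TPM at 14 d. All 6 genes had a fold change above 0 at 12 h, and also at 6 h and 14 d. All 12 h mice are of the earlier dates, and the earlier-date mouse of 0 h had a sum of 436 TPM against 108 and 205 TPM in the later-date mice. Against that mouse alone, Lce3c, Lce3d and Lce3f differed at 12 h by 0.20, 0.03 and -0.65 on the log2(CPM + 1) scale. Lce3c, called over the course, had 27.0, 15.6 and 42.7 CPM at 0 h, 51.3, 53.7 and 43.3 CPM at 12 h, and 3.32 to 21.4 CPM (median 12.8) at 7 d. Every 12 h mouse lay above every 0 h mouse, but the contrast did not pass (log2 fold change 0.80 ± 0.40, adjusted p = 0.66, edgeR), nor did 7 d against 0 h (-1.16 ± 0.35, adjusted p = 0.076). Lce3e had a similar order, with 41.0 to 52.4 CPM at 12 h and 0.949 to 22.5 CPM at 7 d. Lce3f and Lce3e share 46.6% and 42.2% of their 65-base stretches with other genes, so their values depend on how shared reads were divided. For Lce3c the shared part was 30.8%, and for the Lce1 genes 0% (Lce1m) to 15.9% (Lce1e).

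Across the 30 mice, the Pearson r of log2(CPM + 1) was 0.74 for the Sprr1 pair and had a median of 0.72 over the 91 Lce1 pairs, 0.42 over the 15 Lce3 pairs and 0.27 over 21 Sprr2 pairs, and 0.10 between Sprr2 and Lce1 genes. These are descriptions: the points share libraries and depth, and some genes share reads. The genes outside the 37 whose 9 time means were most like those of Sprr1b were Dnase1l2 (r = 0.98), Rab40c, Katnbl1, Srd5a1 and Abcb6 (0.945 to 0.954). For Lor they were Tst and Clic3 (0.94), Mrpl55 (0.93), Mapk13 (0.92) and Mtmr12 (0.91), out of 10830 genes.

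Other genes of cornification were followed as lists, whose counts over the course stand beside the 9.01% of all genes. Of 13 further envelope and granule proteins tested, 2 changed. Cnfn, cornifelin, went from 71.0 to 28.8 CPM at 7 d (log2 fold change -1.31 ± 0.24 SE, adjusted p = 0.0022, edgeR), and S100a10 was the other. Of 10 transglutaminases and processing enzymes 3 changed, and the proteases Klk5 and Asprv1 were both lower at 7 d (-1.05 and -1.08). Of 9 genes of the lipid envelope, which seals the cornified cell with bound ceramides, 5 changed. Among them Alox12b and Pnpla1 were lower at 7 d (-0.79 and -0.71, adjusted p = 0.025 and 0.0049, edgeR). Of 14 regulators of the complex 4 changed, among them Fosl1, an AP-1 subunit, and Hopx, which was lower at 7 d (-0.81, adjusted p = 0.0066, edgeR). The medians of these 4 lists at 7 d were -0.36, -0.61, -0.33 and -0.33 on the log2 scale.

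All 4 wound keratins were higher at 21 d by the edgeR test (1.94% of all genes were called), with log2 fold changes of 2.59 for Krt6b, 1.56 for Krt6a, 2.17 for Krt16 and 1.34 for Krt17, while none of the 37 envelope genes was called at that time. Of 7 basal keratinocyte markers 1 changed over the course (Krt15), and their summed level was 11330 to 12280 CPM at 0 h and 9427 to 14070 CPM at 7 d. Of the 9 spinous and granular markers 1 changed over the course and 1, Cdsn, was lower at 7 d (-1.08 ± 0.23, adjusted p = 0.0074, edgeR). Of 6 fibroblast markers 2 were higher at 7 d, 3 at 14 d and 4 at 21 d, and their sum was 38010 to 45160 CPM at 14 d. Of 5 osteoblast markers 1 was lower at 24 h and 1 at 3 d, 1 was higher and 1 lower at 7 d, and 2 were higher at 14 d and at 21 d. Among all genes tested, 0.493%, 0.551%, 2.34%, 1.61% and 1.94% were called at 24 h, 3 d, 7 d, 14 d and 21 d. Of 4 macrophage and 3 endothelial markers 1 each was higher, at 7 d, and of 6 neutrophil markers and 1 skeletal muscle marker tested none was called at any time against 0 h. The part of these cell types in the levels of the envelope genes was not tested.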

How the data were processed

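Polyadenylated RNA of 30 mouse digits was sequenced as 65-base single reads. Per the labels, processing used CASAVA 1.8.2 and RSEM 1.2.3 with the mm10 build, and per the study's methods reads were aligned to Ensembl genes with Bowtie. The authors deposited expected counts and TPM per gene and mouse, and both were used. A table of means per time was not used. RSEM divides reads that fit several genes, so near-identical genes are uncertain. The deposited expected counts were rounded to whole numbers, and 78.1% already were whole.

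Samples were grouped by the time in the labels. The main test was that of edgeR 4.0.16, run under R 4.3.3 (filterByExpr, TMM, quasi-likelihood F-test, all mice in 1 fit, no covariate), with Benjamini-Hochberg adjustment over all genes tested. The standard error is the log2 fold change divided by the square root of F. DESeq2 1.42.0, other filters, title dates, foot and left-out mice were alternatives. Scripts were tested on simulated data in which some genes were raised at 7 d. For 7 d against 0 h, edgeR called 79% of 4-fold and 35% of 2-fold changes. Over the course it called 83% and 49%, so a gene without a call may still have changed. CPM use TMM library sizes. Named genes were Lor, Ivl, Tgm1, Sprr1a, Sprr1b, Sprr3, the 3 most abundant of each family and those called, with others named for counts or shared reads after their values were seen. The genes and lists were chosen with earlier results of these data known. Replicate numbers follow accession order, and the codes in the titles, some shared between times, are not explained in the sources used here, so neither paired samples. Per the labels, the digits of a time came from different mice. Depth was 3167625 to 16277816 counts a mouse, and a count of 0 allows up to 3 counts, for counting error only.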

Additional observations from a re-analysis of the deposited data

Results flagged for a closer look

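In the 6 mice of 7 d, 23 measures (19 named genes and 4 family sums, as log2 values) were screened for an outlying mouse. In 3 of them the gap between the outermost mouse and its neighbour, divided by the whole range, exceeded Dixon's critical value of 0.625, where chance alone gives about 1 in 20. The ratio was 0.635 for the highest Lce1d value (mouse 1), 0.628 for the lowest Lce1l value (mouse 3) and 0.668 for the lowest Sprr1a value (mouse 3).

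The change from 7 d to 14 d differed between the later and earlier title dates for Lce1b (2.60, later minus earlier, log2) and Lce1e (2.18) by edgeR's interaction test, chosen after the values were seen. Without the 7 d mouse 3 the values were 2.48 and 2.03.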

How the results depend on the processing

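The counts of called genes depended on the fit. The shares of all genes called by DESeq2 are given above. For the other fits below no such share is given, so their counts cannot be set beside that of all genes. DESeq2 called 14 over the course, 2 at 24 h, 2 at 3 d, 8 at 7 d, 4 at 14 d and 1 at 21 d against 0 h, 1 from 3 d to 7 d and 8 from 7 d to 14 d. Fitting only the 2 times compared gave 2 at 12 h, 1 at 24 h, 2 at 3 d, 0 at 7 d, 7 at 14 d, 2 at 21 d and 0 from 7 d to 14 d, from fewer mice. Without the left-foot mice there were 5 over the course, 3 at 24 h, 2 at 3 d, 3 at 7 d, 4 at 14 d and 0 from 7 d to 14 d, the last a comparison added after the values were seen. The 3 at 7 d did not include Tgm1, Lce1d, Lce1e or Lce1l, which lost their calls in that fit. Title dates as a covariate gave 2 at 14 d and 9 from 7 d to 14 d. At a threshold of 0.01 there were 4 over the course, 1 at 7 d and 0 at 14 d. With Sprr2, Lce1 and Lce3 each summed, 3 of 9 rows changed over the course. Leaving out each mouse in turn gave 5 to 13 genes over the course, 0 to 1 at 24 h, 0 to 8 at 7 d, 0 to 2 at 14 d and 0 to 7 from 7 d to 14 d. Apart from what fewer mice or a stricter threshold bring by construction, the cause of these differences was not tested. DESeq2's size factors and both other filters left the counts over the course and against 0 h within 1.5 times, as did the summed Sprr2a pair (added after the values were seen), which also did so for the steps. The 11 called fold changes gave 415 refitted values, all of the same direction, of which 345 were still called. These 11 were taken because they were called, and most refits left out only a single mouse, so the shared direction is a description only. No paired analysis was possible because the replicate numbers follow accession order, and the meaning of the codes in the titles, some of which recur at other times, is not given in the sources used here. Depth limits the low genes most: Sprr2e, Lce3a, Lce3b and Sprr2k were at 0 counts in 6 to 11 mice.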
